A study of Mus musculus with 59 samples.

Results

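Guidance ligands and receptors of the Eph, ephrin, semaphorin, plexin and neuropilin families were followed in motor neuron cultures exposed to mouse serum. The genes were taken by name: all symbols of the type Epha or Ephb with a number, Efna or Efnb with a number, Sema3 to Sema7 with a letter, Plxna to Plxnd with a number, and Nrp1 and Nrp2. This gave 52 of the 19613 genes on the deposited table, namely 9 Epha, 5 Ephb, 4 Efna, 3 Efnb, 7 Sema3, 6 Sema4, 2 Sema5, 4 Sema6, 1 Sema7, 9 Plxn and 2 Nrp genes. The rule uses names and no measured value, although the families were picked with earlier results of these data known.

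The indicator cells were embryoid bodies, floating aggregates grown from the HGB3 line of mouse embryonic stem cells, 1 line that carries a fluorescent reporter driven by the motor neuron gene Hb9 (Mnx1). Retinoic acid and a Hedgehog agonist were used to direct them to spinal motor neurons, so all arrays share this line and treatment, and motor neurons are only a part of the cells. The aggregates were exposed for 24 h to serum of males hemizygous for a mutant human SOD1 transgene (G93A; carrier serum, 29 arrays) or of littermates without it (non-carrier serum, 30 arrays). The transgene was thus in the serum donors and not in the cells. The donors were F1 progeny of C57BL/6 and SJL, and the age field of the labels reads 9 weeks for 53 arrays and 10 weeks for 6. Its wording names cultures, but by the study's methods the cells were differentiated and exposed within days, so the weeks are read as donor age.

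Array titles fall into 9 runs: 7 arrays titled motorneuron, 4 titled HB9MNs, 6 arrays of 10 weeks, and 6 runs known by ranges of numbers, here called A to F. All 9 runs held both kinds of serum. The runs are read from titles, run C has 11 arrays and may hold more than 1 batch, and a batch of cells and the processing of its arrays cannot be told apart. All 10 measured motor neuron markers, Mnx1, Isl1, Lhx3 and Chat among them, and all 8 motor neuron progenitor markers lay above the 95th percentile of olfactory receptor genes, which serve here as genes not expected in these cells. Of markers of other neural cells, the same was true of 5 of 5 for ventral p3 and floor plate and 7 of 9 for spinal interneurons. It was also true of 5 of 6 for astrocytes and radial glia and 3 of 5 for oligodendrocytes. For the remaining cells the counts were 3 of 6 for mesenchyme, 3 of 6 for endoderm and 2 of 5 for neural crest. They were 2 of 7 for pluripotent cells, 1 of 6 for endothelium and 0 of 4 for blood. Correlations between arrays over all genes ran from 0.936 to 0.997, so no 2 arrays held the same values. A two-sided Grubbs test on the mean correlation of an array within its run set apart 2 arrays, 1 of run C with non-carrier and 1 of run E with carrier serum. Without them the counts of guidance genes called for serum (given below) were the same, and the median share of variance between runs was 78.2% in place of 75.4%.

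As background, ephrins are ligands held on the cell surface and Eph receptors are their receptor tyrosine kinases; contact between them mostly repels a growing axon, and ephrins can also signal back into their own cell. EphA receptors mainly bind the lipid-anchored ephrin-A proteins and EphB receptors the transmembrane ephrin-B proteins. Semaphorins are secreted (the Sema3 class) or membrane-bound (Sema4 to Sema7) and signal through plexins, with neuropilins as the co-receptors that bind most class 3 semaphorins. In the spinal cord these cues steer motor axons: EphA4 and ephrin-A signals help limb motor axons choose between dorsal and ventral paths, EphB1 and ephrin-B2 do so for axons growing ventrally, and Sema3A acting on Nrp1 and Sema3F acting on Nrp2 time and shape the growth of axons into the limb.

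Promoter sequence was read from RefSeq windows for build GRCm38.p6, which held 46 of the 52 genes. The 250 bases before the start contained a median of 15.5 CG dinucleotides over 60 member windows, against 11 over the 16557 windows of all genes of the table. At least 10 CG were present in 68.3% of member windows and 54.5% of all windows, and since CG reads the same on both strands each is counted once. Sema3a, Sema3d and Nrp2 are shown because their levels differed most widely between runs among the semaphorins and neuropilins that lay above the olfactory reference, with CG in capitals. The Sema3a and Sema3d windows held 2 and 4 CG and the Nrp2 window 32, so the 3 genes lay at both ends of the CG counts.
Sema3a, chr5:13396534-13396783, + strand: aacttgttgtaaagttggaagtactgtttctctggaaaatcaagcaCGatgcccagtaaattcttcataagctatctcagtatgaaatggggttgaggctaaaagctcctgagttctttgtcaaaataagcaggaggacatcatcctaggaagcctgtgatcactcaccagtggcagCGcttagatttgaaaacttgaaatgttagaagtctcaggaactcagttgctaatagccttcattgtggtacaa
Sema3d, chr5:12382916-12383165, + strand: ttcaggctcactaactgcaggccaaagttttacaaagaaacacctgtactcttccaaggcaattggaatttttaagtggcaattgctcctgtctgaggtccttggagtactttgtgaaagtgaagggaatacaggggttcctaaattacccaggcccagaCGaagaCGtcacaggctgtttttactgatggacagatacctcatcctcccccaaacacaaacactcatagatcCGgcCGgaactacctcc
Nrp2, chr1:62703067-62703316, + strand: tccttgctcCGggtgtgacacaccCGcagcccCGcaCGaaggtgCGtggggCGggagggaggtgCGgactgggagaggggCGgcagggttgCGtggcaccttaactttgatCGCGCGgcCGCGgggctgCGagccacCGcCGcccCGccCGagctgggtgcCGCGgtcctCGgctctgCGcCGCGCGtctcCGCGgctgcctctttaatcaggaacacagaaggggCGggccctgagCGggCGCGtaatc

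**Figure D1:**
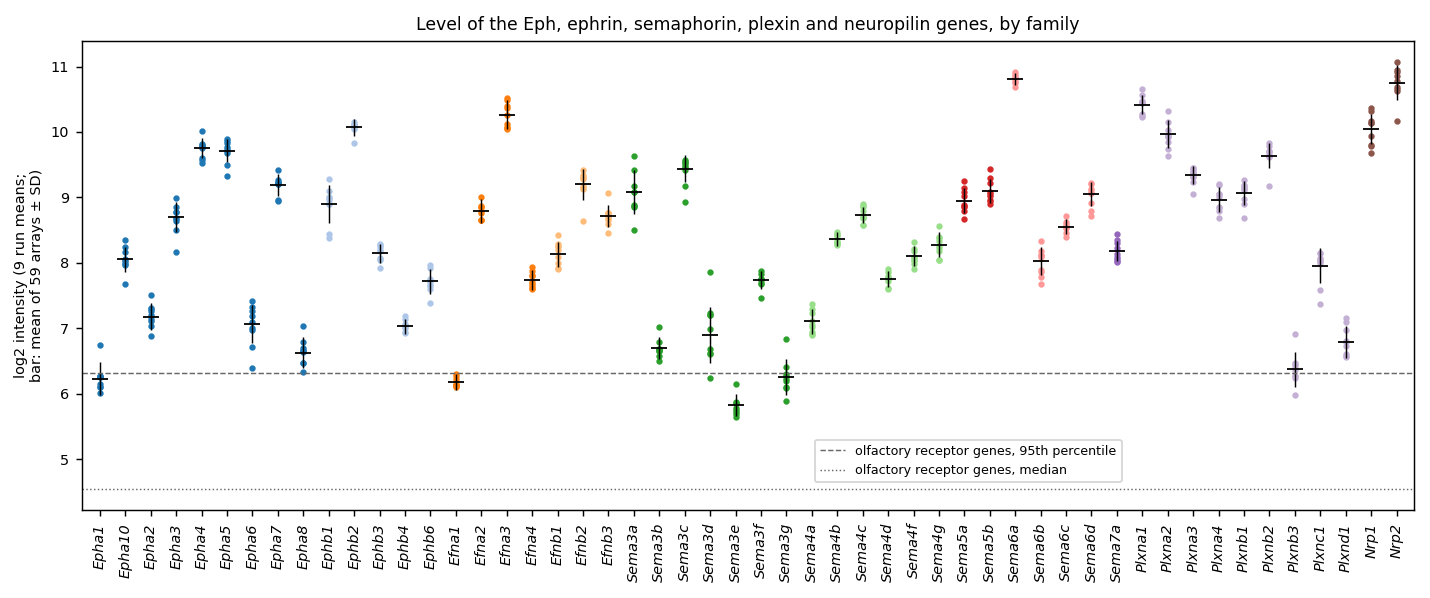
Log2 intensity of each of the 52 genes, grouped by family along the x axis; coloured points are the 9 run means, and black bars are the mean of 59 arrays ± SD. The dashed line is the 95th percentile of olfactory receptor genes (6.31) and the dotted line their median (4.54); Sema3e, Efna1, Epha1 and Sema3g have means under the dashed line.

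Most of the guidance genes gave a signal well above that of genes not expected in these cells. The mean log2 intensity over 59 arrays exceeded the olfactory 95th percentile of 6.31 for 48 of the 52 genes, while 66.7% of all genes did so. The 4 below were the receptor Epha1 (6.23 ± 0.25, SD, n = 59), the ligand Efna1 (6.18 ± 0.13), and the secreted semaphorins Sema3e (5.82 ± 0.17) and Sema3g (6.25 ± 0.28). Intensity depends on each gene's probes, so levels are set against this reference and not ranked as amounts between genes. The median of the 52 levels was 8.46 and that of all genes 7.32.

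Among receptors, the brightest signals of each family came from Epha4 (9.75 ± 0.15), Ephb2 (10.07 ± 0.12), Plxna1 (10.42 ± 0.15), a co-receptor-dependent plexin for class 3 semaphorins, and Nrp2 (10.75 ± 0.27). Nrp1 was also bright, at 10.05 ± 0.23, and Epha5 at 9.71 ± 0.18 was near Epha4. All 9 plexins were above the olfactory reference, but Plxnb3 only just, at 6.37 ± 0.27. Among ligands the brightest of each family were Efna3 (10.26 ± 0.22), Efnb2 (9.20 ± 0.24), Sema3c (9.44 ± 0.21), Sema4c (8.73 ± 0.12), Sema5b (9.10 ± 0.19) and Sema6a (10.81 ± 0.10). The only class 7 gene, Sema7a, which encodes a lipid-anchored semaphorin, was at 8.18 ± 0.15. The Sema3 family had the lowest median level, 6.90, and the Nrp pair the highest, 10.40.

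Differences between runs were the main source of variation in these genes. The median share of a gene's variance that lay between runs was 75.4% in the 52 genes and 62.5% in all genes. This share exceeded 50% in 47 of the 52 (69.8% of all genes did so), and all 52 passed the limma F test for run at an adjusted p under 0.05, as did 94% of all genes. Brighter genes have a higher share in general, so levels were also compared in bands of 1 log2 unit: 37 of the 52 exceeded the median share of all genes in their own band. In bulk samples fewer cells of a type and less RNA per cell cannot be told apart, and this holds for each difference between runs below.

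The family medians of the run share ran from 45.3% for Efna to 91.4% for Nrp, with 83.4% for Plxn, 79.8% for Sema5, 78.3% for Efnb, 75.8% for Sema7, 75.1% for both Epha and Sema3, 67.9% for Sema6, 67.2% for Ephb and 65.9% for Sema4. The 3 largest shares belonged to Nrp1 (93.6%), Sema3d (93.2%) and Efnb2 (90.5%), and Sema3a followed with 90.1%. The 3 smallest were Efna1 (28.05%), Efna2 (36.6%) and Sema4b (43.1%). Ephb2 (49.6%) and Sema6a (49.9%) were the other genes under 50%. The other ephrin-A ligands, Efna3 (62.6%) and Efna4 (53.9%), were above 50%. The lowest arrays of Efna2 (7.91) and Efna3 (9.40) lay well below the medians of 8.81 and 10.28. Family medians without the arrays set apart above are not given here. Thus, by family median only, the 2 neuropilins, co-receptors of secreted semaphorins, were at the upper end and the 4 ephrin-A ligands at the lower end. With cyclic loess, a scaling that evens out level-dependent shifts, the family medians kept these ends, at 91.1% for Nrp and 56.5% for Efna. The ranking of single dim genes did not hold: Efna1 then had 64.4%, and the smallest share was that of Sema3b (28.3%, from 68.2%).

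**Figure D2:**
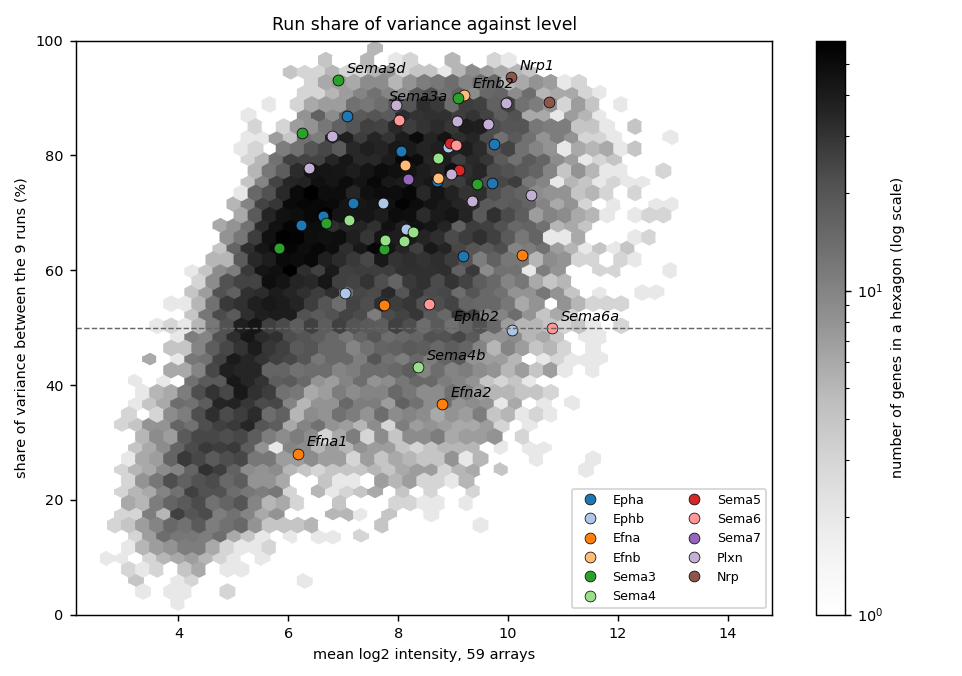
Share of variance between the 9 runs (y axis, percent) against mean log2 intensity (x axis) for all 19613 genes (grey hexagons, darker for more genes) and the 52 guidance genes (coloured by family). Both neuropilins lie near 90% or above, Efna1, Efna2 and Sema4b lie well under the dashed line at 50%, and Ephb2 and Sema6a just under it.

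Sema3d, a secreted semaphorin, differed most. Its run mean was 7.86 ± 0.24 (SD, n = 4) in HB9MNs and 6.24 ± 0.08 (n = 6) in run A, a range of 1.63 log2 units or 3.09-fold, and 13.3 times the spread within runs. The remaining runs lay at 7.21 (motorneuron), 6.63 (B), 6.60 (C), 6.68 (D), 7.21 (E), 6.98 (F) and 7.23 (10-week). The lowest HB9MNs array, 7.50, exceeded every array of runs A to F and of the 10-week run (highest 7.33), and overlapped with motorneuron arrays, which reached 7.55. Sema3a, whose product repels motor and sensory axons, had the second widest range, 1.12. It was highest in run A (9.63 ± 0.06) and lowest in the 10-week run (8.51 ± 0.09), and the arrays of these runs did not overlap (9.53 to 9.70 and 8.40 to 8.62). Sema3c was lowest in HB9MNs, at 8.93 ± 0.12, and 9.17 to 9.57 elsewhere. Sema3f had a smaller range of 0.41, and the dimmer Sema3b, Sema3e and Sema3g were highest in motorneuron and lowest in run E.

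Neuropilin levels separated from each other. Nrp2 was 10.17 ± 0.15 (n = 7) in motorneuron and 10.62 to 11.07 in the other runs, a range of 0.90. Its highest motorneuron array, 10.50, lay below the lowest array outside that run, 10.53. Nrp1 was high in the same run (10.32 ± 0.07) and in HB9MNs (10.37 ± 0.03) and lowest in run E (9.68 ± 0.06). The run low in Nrp2 was therefore among the runs high in Nrp1.

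Eph receptors varied in different runs. Epha6 had the widest range of its family, 1.02, with 6.40 ± 0.02 in HB9MNs and 7.42 ± 0.08 in run B. Ephb1, the receptor for ephrin-B ligands on ventrally growing motor axons, had a range of 0.90, from 8.37 ± 0.19 in motorneuron and 8.44 ± 0.08 in HB9MNs to 9.28 ± 0.10 in run A. Epha4 spanned 0.49, with 9.53 ± 0.07 in HB9MNs and 10.01 ± 0.05 in run B, and Ephb2 only 0.33. Among ephrins, Efnb2 was 8.64 ± 0.10 in motorneuron against 9.13 to 9.42 elsewhere, a range of 0.78, and its arrays there (8.45 to 8.74) lay below all others (lowest 9.01). Efna3 had the widest range of the ephrin-A ligands, 0.47, between 10.05 in motorneuron and 10.52 in run A. Within run E its arrays ran from 9.40 to 10.36, and the lowest of the 59 values was that of the run E array with carrier serum named above.

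The median range was 0.37 for Sema4, 0.56 for Sema5, 0.41 for Sema6 and 0.61 for the plexins, against 0.53 for the 52 genes. The widest of their classes were Sema4g (0.53, run A to run B), Sema5a (0.59, run A to motorneuron), Sema6b (0.65, run A to run E) and Plxnb3 (0.93, motorneuron to run E). Sema7a ranged over 0.43, with its highest mean in HB9MNs (8.44 ± 0.01). Plxnc1, a receptor for Sema7A, did not follow it: it was lowest in motorneuron (7.38) and 7.58 in HB9MNs. The B plexins Plxnb1 and Plxnb2, receptors for class 4 semaphorins, were lowest in motorneuron (8.68 and 9.18) and highest in the 10-week run (9.26 and 9.83). Sema6a varied least among the class 6 genes, by 0.23.

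**Figure D3:**
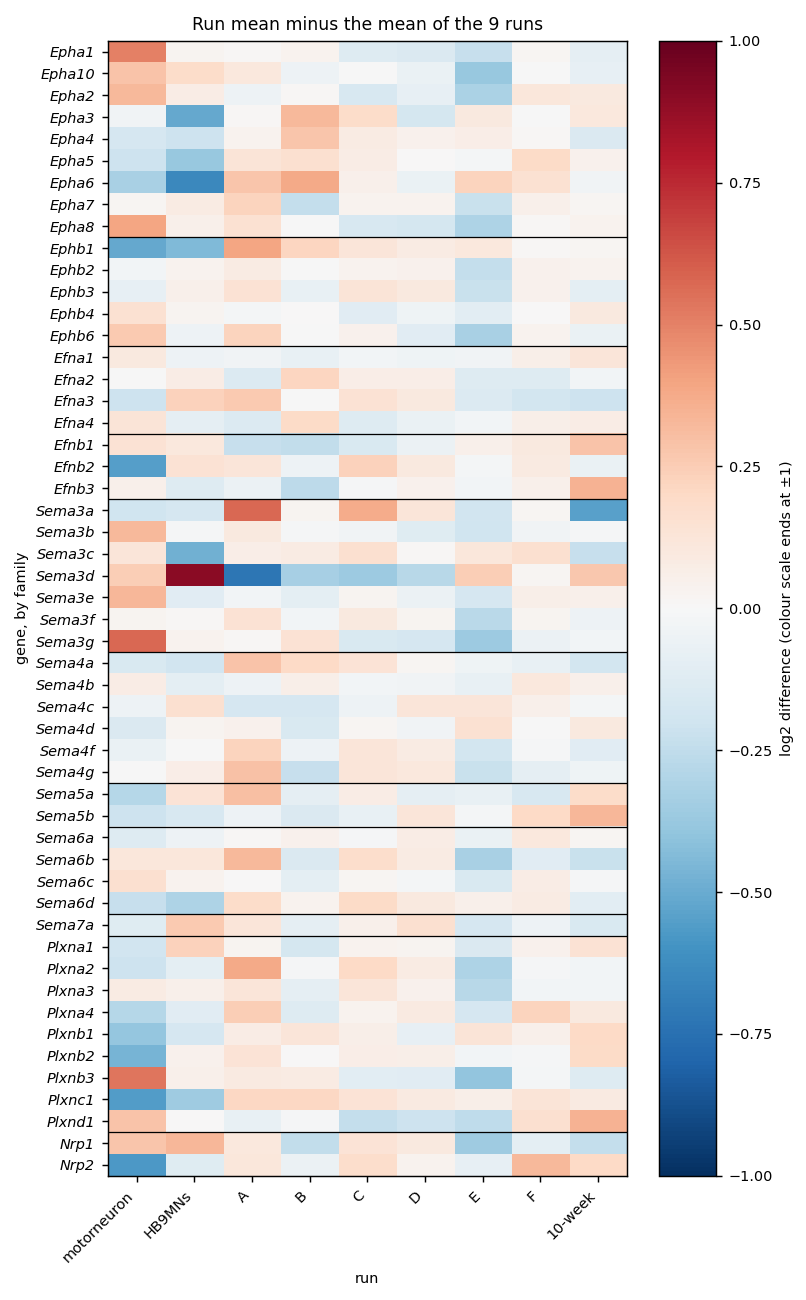
Heat map of each run mean minus the mean of the 9 runs (log2, colour scale from -1 to 1) for the 52 genes in rows, by family, and the runs in columns. Sema3d is highest in HB9MNs and lowest in run A, Nrp2, Plxnc1 and Efnb2 are low in motorneuron, and the red block of Epha1, Epha8, Sema3g and Plxnb3 in motorneuron holds dim genes.

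Run A held the highest mean of 16 of the 52 genes (30.8%), although it held the highest of 6.44% of all genes. These were 8 receptors (Epha7, Ephb1, Ephb2, Ephb3, Plxna2, Plxna3, Plxna4 and Plxnc1) and 8 ligands (Efna3, Sema3a, Sema3f, Sema4a, Sema4f, Sema4g, Sema5a and Sema6b). The summed level of motor neuron markers was the lowest of the 9 runs in run A (12.55 on the log2 scale, highest 12.89) and that of spinal interneuron markers the highest (10.80, lowest 9.98), and their part in these values was not tested. Run E held the lowest mean of 20 genes (38.5%, and 30.8% of all genes) and motorneuron the highest of 11 (21.2%, and 48.9% of all genes). The shift of dim genes bears on the last values: over all genes with a mean of 6 to 7, the median deviation was 0.37 in motorneuron and -0.22 in run E, and over genes of 9 to 10 it was -0.05 and 0.00. Of the 13 guidance genes under the median level of all genes, 8 were highest in motorneuron and 8 were lowest in run E. Epha1, Epha2, Epha8, Sema3b, Sema3e, Sema3g and Plxnb3 did both. With cyclic loess, which evens out shifts that depend on the level, the range of Epha1 went from 0.73 to 0.22, that of Sema3b from 0.52 to 0.10 and that of Plxnb3 from 0.93 to 0.42, while Sema3d kept 1.66 and Nrp2 0.93.

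The 3 runs with names of their own were each compared with the mean of runs A to F. The error is the spread of arrays within runs, so the p-values do not measure how runs A to F differ among themselves. In HB9MNs some called genes, such as Efna3, lay inside the range of the A to F means, and others, such as Sema3d, outside it. In HB9MNs 9 of the 52 genes were higher and 15 lower at an adjusted p under 0.05 (limma, adjusted over all genes), while 16.1% of all genes were higher and 12.7% lower. Sema3d was higher by 1.14 (SE 0.06, adjusted p = 2.45e-20) and Nrp1 by 0.40 (SE 0.04, adjusted p = 2.34e-13). Of the EphA receptors 4 were lower, Epha6 (-0.81), Epha3 (-0.59), Epha5 (-0.46) and Epha4 (-0.30), and Epha10 was higher (0.25). Also lower were Ephb1 (-0.60), Sema3c (-0.58), Plxnc1 (-0.49) and Sema6d (-0.42), and Sema7a was higher (0.26). HB9MNs has 4 arrays only, and its summed motor neuron marker level was the highest of the runs (12.89 on the log2 scale, against 12.55 to 12.77) and its summed progenitor level the lowest (11.69, against 11.83 to 12.13). Their part in these differences was not tested.

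In the 10-week run 14 genes were higher and 13 lower, against 12.8% and 15.4% of all genes. Sema3a was lower (difference -0.70, SE 0.05, adjusted p = 2.66e-18), with a run mean of 8.51 below all of A to F (8.87 to 9.63). Sema3c (-0.33) and Sema4a (-0.27) were lower too. Higher were Sema3d (0.51), the plexin Plxnd1 (0.46), which binds Sema3E, both Efnb3 (0.40) and Efnb1 (0.37), and Sema5b (0.32). Of the 9 plexins 4 were higher and none lower. The summed level of 5 markers of ventral p3 and floor plate cells was also highest in this run, 12.06 on the log2 scale against 10.23 to 11.48 in the others, and so was that of 6 endoderm markers (10.06 against 8.96 to 9.62), while the pan-neuronal sum was the lowest (13.46 against 13.49 to 13.69). The part of these markers in the differences was not tested. The age in the labels, read as that of the donors, also differs in this run. Donor age and run therefore cannot be told apart.

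In motorneuron 21 genes were higher and 23 lower, while 56.2% of all genes were higher and 24.8% lower, and the median of all genes was shifted by 0.19. Against that shift, the receptors Plxnc1 (-0.70, SE 0.04, adjusted p = 1.50e-21), Ephb1 (-0.67), Nrp2 (-0.66), Plxnb2 (-0.51) and Plxnb1 (-0.44) and the ligand Efnb2 (-0.63) were lower. Nrp1 was higher by 0.34 and remained so after cyclic loess, at 0.39. Of the 9 plexins 6 were lower and 3 higher. With cyclic loess 17 genes were higher and 24 lower, while 33.8% of all genes were higher and 32.3% lower. The sign turned for 7 of the guidance genes. Of these 3 had been called before, Efna1 (0.13 to -0.26), Ephb4 (0.20 to -0.05) and Sema3e (0.37 to -0.03). After cyclic loess 1 of the 7, Efna1, was called (adjusted p = 1.67e-07, limma). The other 4, Ephb2, Sema3f, Sema4c and Sema4g, were called in neither and lay within 0.054 of 0. The summed level of 6 mesenchyme markers was highest in this run (10.20 on the log2 scale, against 9.30 to 9.87), and its part was not tested.

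The 9 run means of each gene were set against those of Olig2, Mnx1, Isl1 and Lhx3, the transcription factors by which the study corrected for batches of neurons. Of 208 relations none passed a Benjamini-Hochberg adjusted p of 0.05 in exact permutation tests (two-sided, smallest adjusted p = 0.992 for Pearson's r and 1 for Spearman's rho), and 8 had an unadjusted p under 0.05 for either measure (4 for r and 5 for rho). The only relation under 0.05 for both was that of the ligand Efna2 with Isl1 (r = 0.70, exact p = 0.034, rho = 0.85, exact p = 0.0061, n = 9 runs). Without HB9MNs and run A, the runs farthest from the median of Isl1, its r was 0.87. The lowest p for r was that of Sema3c with Olig2 (r = 0.74, exact p = 0.028, rho = 0.53, exact p = 0.148), whose r was -0.35 without the 10-week run and HB9MNs, so that relation rested on these runs. Both were picked for naming after their values were seen, and both missed the adjusted threshold.

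The comparison the assay was built for, carrier against non-carrier serum, gave small estimates in these genes. None of the 52 passed an adjusted p of 0.05 in limma with the run as a block, whereas 457 of all genes, 2.33%, did. At an unadjusted p under 0.05 there were 8 of the 52 (15.4%), 4 higher and 4 lower, against 20.7% of all genes, so the share was below that of all genes. Without run C, 6 were higher (Epha3, Epha6, Efna4, Sema3a, Sema4a and Sema6d) and 1 lower (Sema4g), 13.5% against 8.16% of all genes. With the 4 transcription factors as covariates beside the run, 16 were higher and none lower, 30.8% against 31.2% of all genes. The median size of the change was 0.028 on the log2 scale, and 0.039 over all genes. With the run as block and no covariates, the 95% intervals of the 52 changes all lay between -0.151 and 0.155. In that fit, taken gene by gene, this limits a change to about these sizes. For Epha1 the estimate reached 0.137 under other settings.

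Sema4g, a membrane-bound class 4 semaphorin, had the smallest p. The 29 arrays with carrier serum ran from 7.85 through a median of 8.21 to 8.71, and the 30 with non-carrier serum from 8.01 through 8.31 to 8.69. The groups overlapped almost wholly over all runs, whose means spanned 0.53. Arrays of both sera also overlapped within runs. In run C carrier arrays ran from 8.12 to 8.71 and non-carrier arrays from 8.30 to 8.69. The standard deviation within runs was 0.111, larger than the serum difference. With the run as a block the carrier minus non-carrier difference was -0.093 (SE 0.029, 95% interval -0.151 to -0.035), or -6.23%, with p = 0.0024 and adjusted p = 0.068 (limma). The difference was below 0 in 9 of 9 runs, from -0.172 in run A to -0.041 in run F. A common sign in all 9 runs was found for 1.76% of all genes, and for Sema4g alone among the 52. The sign in run E rested on the array set apart above: without it the carrier and non-carrier means there were both 8.09. Leaving out that array and the one of run C, no member and 1.54% of all genes had a common sign, and the blocked change of Sema4g was -0.086 (adjusted p = 0.077, limma).

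Sema3a had the second smallest p, in the opposite direction. Carrier arrays ran from 8.50 through a median of 9.09 to 9.67 and non-carrier arrays from 8.40 through 9.08 to 9.70, again with overlap over all runs. The blocked difference was 0.084 (SE 0.028, 95% interval 0.028 to 0.140), or 5.99%, with p = 0.0039 and adjusted p = 0.087 (limma). It was above 0 in 8 of 9 runs, from 0.003 in run C to 0.227 in HB9MNs, and -0.025 in run F. Without the array of run C set apart above, the value in run C was -0.033. Leaving out run C brought both genes past the threshold, with adjusted p = 0.016 for Sema4g and 0.017 for Sema3a, and leaving out any other run did not.

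**Figure D4:**
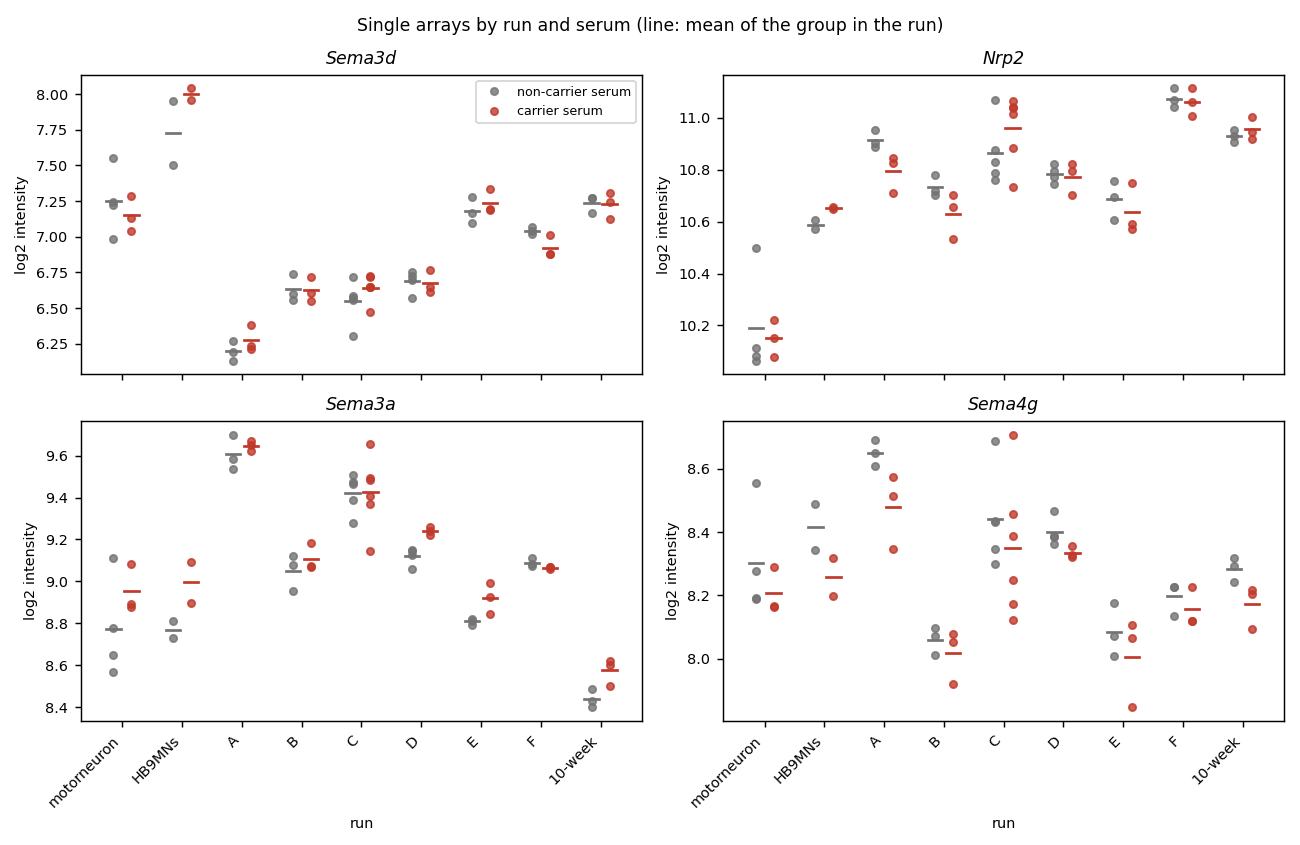
Log2 intensity of single arrays for Sema3d, Nrp2, Sema3a and Sema4g by run (x axis), with non-carrier serum in grey and carrier serum in red; short lines are the means of each serum in a run. Runs are much further apart than the sera within a run, the Sema4g mean is lower with carrier serum in all 9 runs (in run E through 1 low array), and that of Sema3a is higher in 8.

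The next genes by p were receptors and ligands with estimates of 0.03 to 0.08 in size. Plxnb2 had a difference of -0.053 (SE 0.021, adjusted p = 0.140) and Plxna2 of -0.049 (SE 0.019, adjusted p = 0.141), with values below 0 in 7 and 8 of 9 runs. Efna4, a ligand of EphA receptors, had 0.068 (SE 0.028, adjusted p = 0.171), and Ephb4, the partner of ephrin-B2, 0.048 (SE 0.021, adjusted p = 0.195). Sema4c (-0.034, adjusted p = 0.224) and the dim Epha1 (0.079, adjusted p = 0.228) completed the 8 with an unadjusted p under 0.05. Sema4f (0.046), Epha3 (0.059), Plxna1 (-0.040) and Sema6d (0.039) followed, with adjusted p from 0.273 to 0.286. For comparison, the standard deviation of arrays within a run was 0.096 in the median of the 52 genes.

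By family, the 9 Epha estimates were all above 0, from 0.017 (Epha10) to 0.079 (Epha1), with a median of 0.041. Over all genes 11984 of 19613 estimates were above 0 and the median was 0.016. The 3 Efnb estimates were all below 0, with a median of -0.020. Medians were -0.009 for Ephb, 0.002 for Efna, 0.023 for Sema3, -0.020 for Sema4, 0.007 for Sema5, 0.019 for Sema6, 0.014 for Sema7, 0.003 for Plxn and 0.002 for Nrp. With the 4 transcription factors as covariates the sign of 2 of them turned, to 0.071 for Ephb and 0.022 for Sema4. Both neuropilins had narrow intervals around 0, from -0.021 to 0.049 for Nrp1 and from -0.060 to 0.041 for Nrp2, although they differed widely between runs.

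**Figure D5:**
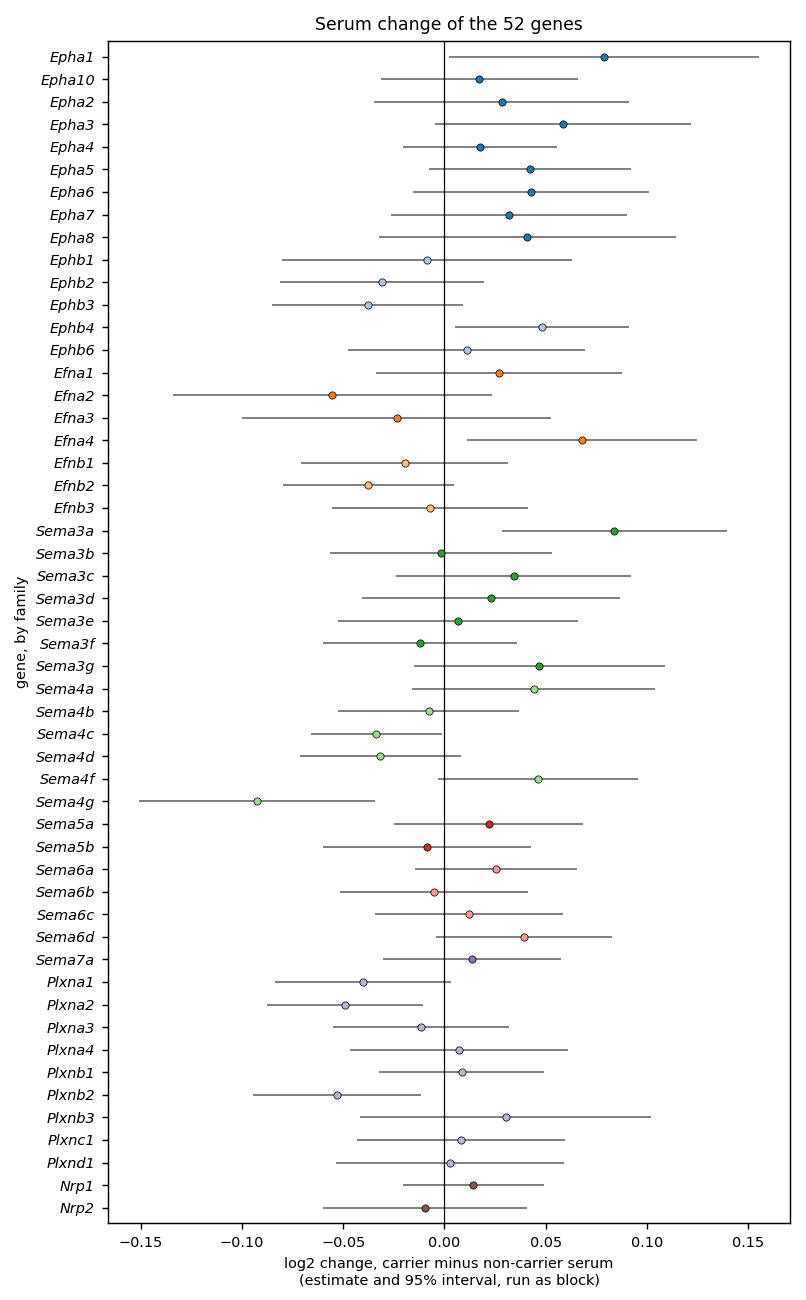
Carrier minus non-carrier change (x axis, log2, run as a block) of the 52 genes by family (y axis); points are estimates and bars 95% intervals from limma. All 9 Epha points lie to the right of 0, the intervals of Sema4g and Sema3a are the farthest from 0, and no gene passed the adjusted threshold.

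Whether the serum change itself differed between runs was tested with an interaction term. None of the 52 genes passed an adjusted p of 0.05 in limma (0.127% of all genes did), and 5 had an unadjusted p under 0.05, or 9.62% against 7.94% of all genes. These were Ephb1 (p = 0.0065, adjusted p = 0.396), Epha6 (p = 0.018), Sema3e (p = 0.038), Ephb6 (p = 0.042) and Epha8 (p = 0.046), chosen for naming after their values were seen.

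Genes that work beside these families gave a similar picture. Of 10 measured genes of the netrin, DCC and UNC5 family, 10 of the Slit and Robo family, 3 repulsive guidance molecules and 19 signalling partners of Eph receptors and ephrins, none passed an adjusted p of 0.05 for serum. Of 32 partners of semaphorins, plexins and neuropilins 1 was lower and none higher. Over all these lists that is 1 of 73 genes, or 1.37%, and 2.33% of all genes were called. The gene was Rnd1, a small GTPase that binds plexin cytoplasmic domains, with 7.07 ± 0.22 (SD, n = 29) with carrier and 7.17 ± 0.22 (n = 30) with non-carrier serum, a blocked difference of -0.113 (SE 0.027, adjusted p = 0.016, limma), below 0 in 8 of 9 runs. Without run D or the 10-week run its adjusted p was 0.080 or 0.074. Among cell type markers, chosen for naming after their values were seen, Slc5a7 of the 10 motor neuron genes (0.151, adjusted p = 0.041) and Snap25 of the 4 pan-neuronal genes (0.074, adjusted p = 0.017) were higher with carrier serum and Slc1a2 of the 6 astrocyte and radial glia genes (-0.068, adjusted p = 0.031) was lower (limma). Leaving out single runs raised these to at most 0.176, 0.073 and 0.085: Slc5a7 lost the call without any of HB9MNs, A, B, D, E, F or 10-week, Snap25 without A, B or 10-week, and Slc1a2 without HB9MNs, A, D, F or 10-week. Their lists as a whole did not follow them. The median change was 0.002 for motor neuron, -0.019 for pan-neuronal and 0.027 for astrocyte and radial glia genes. At an unadjusted p under 0.05 (limma), 3 motor neuron genes were higher and 3 lower. Of the pan-neuronal genes 1 was higher and 1 lower, and of the astrocyte and radial glia genes 0 and 1. The summed motor neuron marker level ran from 12.46 to 12.93 with carrier and from 12.51 to 12.89 with non-carrier serum, and the part of such markers in the serum estimates was not tested.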

How the data were processed

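The members and lists were chosen with earlier results of these data known. Per the labels and the study's methods, the authors hybridised RNA to Affymetrix mouse exon arrays, removed outlier arrays and made gene values by RMA as the mean over a gene's exons. The processing notes name Affymetrix Expression Console and the methods aroma.affymetrix, and versions and genome build are not given in the sources used here. The deposited values are linear intensities for 19613 gene symbols on 59 arrays, with array medians of 151 to 183. They were put on a log2 scale with 0 added and no filter on low values.

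limma 3.58.1 (R 4.3.3; lmFit, eBayes) gave the serum change, each run being a block. Its tests were two-sided, p-values were adjusted by Benjamini-Hochberg across the whole table, and 0.05 was the threshold. Run and the interaction were tested with its moderated F test, and the share between runs is the R squared of a fit on run. Contrasts of named runs, and cyclic loess, were added after seeing the data. Correlations over runs enumerated all 362880 orders. The labels do not tie arrays to separate mice, so p-values measure the spread between arrays, whose number limits the precision. Named were the 12 members with the smallest serum p, the brightest and the most run-variable of each family, the 3 largest and 3 smallest run shares, and listed partners past the threshold; other members are named by their counts or contrasts. A promoter minimum of 10 CG was chosen after seeing the counts. Genes without a row, such as Efna5, were not analysed here. Scripts were tested on simulated data. Alternatives changed block, covariates, scaling, prior and weights, and left out dim genes, single arrays or runs.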

Additional observations from a re-analysis of the deposited data

How the results depend on the processing

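The count of guidance genes called for serum, 0 higher and 0 lower, changed with the settings. Called higher were 16 with the 4 motor neuron genes as covariates (where 31.2% of all genes were called, and 30.8% of these), 4 with array weights, and 1, Sema3a, with quantile normalization, with genes under the median level left out, with the replicate block and with cyclic loess, which was chosen after seeing the data. Called lower were 2 with array weights and 1 with dim genes left out, Sema4g. With array weights 11.5% of the guidance genes and 14.3% of all genes were called, and with dim genes left out 5.13% and 6.68%. The settings that called Sema3a alone called 1.92% of the guidance genes and 2.26% to 2.62% of all genes. Leaving out each run in turn gave 0 to 6 higher and 0 to 1 lower. Run C alone gave 6 and 1 (13.5%, against 8.16% of all genes). The cause was not tested. With the 4 covariates the median change was 0.071 for Ephb and 0.022 for Sema4, against -0.009 and -0.020. Of the 12 guidance genes by p none changed sign in any alternative. Over its 21 alternatives the adjusted p was 0.016 to 0.995 for Sema4g and 0.011 to 0.995 for Sema3a, and without any block 0 of all genes passed (limma), with 0 of the 52 at an unadjusted p under 0.05. Rnd1 held in 17 of 20 alternatives (adjusted p 0.002 to 0.995), Snap25 in 16 of 21, and Slc5a7 and Slc1a2 in 12 of 21 each.

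Arrays sharing a number in the 3 named runs (8 pairs) correlated from -0.135 to 0.327 in their deviations from the means of their run and serum. Each of these means rests on 2 to 4 arrays, so the values cannot show whether the numbers pair arrays. With the replicate block 1 gene was higher (Sema3a, adjusted p = 0.027, limma) and 0 lower. Genes over the 50% run share numbered 43 to 50. With the 99th percentile of olfactory genes or the 95th of vomeronasal genes as the reference, 39 or 52 members were above it, and 48 under the other alternatives. The interaction called 0 in all alternatives run.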
